A study of Homo sapiens with 6 samples.

Results

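Desmosomes and adherens junctions are the contacts that hold epithelial cells together, and the 9 genes described here encode their main parts. The rows were those of the isoform count table whose Ensembl gene ID maps to DSP, DSG3, DSC2, DSC3, JUP, PKP1, PKP3, PERP or CDH1. They gave 9 of 11034 genes with an Ensembl ID and 106 of 63224 isoform rows. The cells were HBEC3kt, an immortalised line of human bronchial epithelial cells, either wild type or carrying the S34F change in the splicing factor U2AF1, and the study asked how this mutation alters RNA processing. Poly(A) RNA was reverse transcribed from the poly(A) tail by the Smart-Seq2 approach and sequenced as whole cDNA on a nanopore instrument. There were 3 wild-type and 3 S34F libraries. In each genotype, replicate 1 came from isolate 1 and carried the mark B1, replicate 2 from isolate 2 with B1, and replicate 3 from isolate 2 with B2. The labels explain neither the B mark nor how the 2 isolates of a genotype arose. The labels do not say that the libraries of 1 isolate came from separate cultures, so p-values measure the spread between these libraries, part of which may be technical.

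In a desmosome, the cadherins desmoglein and desmocollin reach out to the neighbouring cell, and inside the membrane plakoglobin and the plakophilins tie them to desmoplakin, which holds the keratin filaments. In the adherens junction, E-cadherin binds through catenins to actin. Plakoglobin works in both structures. U2AF1 recognises the AG at the 3' splice site, so choices between acceptors are where a mutation in it is usually looked for. In airway basal cells, the cell type that HBEC lines resemble, these contacts keep the epithelium sealed and attached.

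The libraries held 451540 to 1720292 reads, and the S34F libraries were the smaller (451540 to 1014868, against 1286512 to 1720292), so that 1 read was worth 0.581 to 2.21 CPM, the unit of reads scaled to a common library size. Both B2 libraries stood apart from the 4 B1 libraries on the first principal component (53.6% of the variance), and the genotypes separated on the second (22.1%). B2 libraries had 17.5% and 19.0% of their reads on loci without a gene ID, against 8.22% to 9.86% in B1. They also had 2.37% and 2.87% of reads on models over 3000 bases, against 1.21% to 1.66%. Of 10 markers of airway basal cells, 9 were read, with a summed level of 4985 to 18870 CPM. All 7 secretory and all 5 endothelial markers had no row in the table, and 1 of 7 ciliated (DNAH5) and 1 of 7 blood markers (CD14) had a few reads. Of 16 fibroblast or mesenchymal markers, VIM, FN1, SPARC and SNAI2 were read and the other 12, collagen genes, DCN and LUM included, had no row.

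One member needed a check of its label before any value was used. The JUP gene ID, ENSG00000173801.12, covered 84 isoforms with 28656 reads, far more isoforms than any other member. Only 7 of these isoforms, with 474 reads, lay at the JUP locus (chromosome 17, 39910857 to 39942950, minus strand, hg19). The other 77, with 28182 reads (98.3% of the reads under the ID), lay in the keratin cluster of the same chromosome, between 39679870 and 39786729, and all of them reach into KRT17. The most read of them (15278 reads, 8 exons) carries the transcript ID ENST00000311208, which GENCODE v29 assigns to KRT17, a keratin of basal cells. KRT17's own gene ID had 227 reads. The 2 transcripts differ from the first coding bases on, which are shown here from GENCODE v29 with the start codon in capitals, since they tell which gene the rows hold.
JUP: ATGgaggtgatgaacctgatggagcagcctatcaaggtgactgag
KRT17: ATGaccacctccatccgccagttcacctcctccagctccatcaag
Over the whole table, 388 of 15844 isoforms with a transcript ID (2.45%) carried the gene ID of another gene than GENCODE v29 gives, and the KRT17 form under the JUP ID was the most read. Below, JUP means the rows at its own locus unless the gene ID is named. The rows at the KRT17 locus are given beside them.

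Further sequences mark the splice choices that the members' reads could be sorted by. Desmoplakin is made in a long form, desmoplakin I, and a short form, desmoplakin II, in which the rod between the ends of the protein is cut down. They differ in where exon 23 ends: 2295 bases in the long form (chromosome 6, 7579508 to 7581802, plus strand) and 498 in the short one (7579508 to 7580005). The 1797 bases left out make 599 codons, so the frame is kept. The junctions are printed with the start of exon 24 in capitals, and the donor inside exon 23 with its GT in capitals.
DSP I junction: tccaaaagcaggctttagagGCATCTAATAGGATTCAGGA
DSP II junction: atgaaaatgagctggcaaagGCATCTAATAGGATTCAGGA
DSP II donor: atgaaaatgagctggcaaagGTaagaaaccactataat
PKP3 and JUP each have a pair of acceptors 3 bases apart, the kind of site that U2AF1 reads. The 3 bases that only the upstream acceptor keeps are in capitals. In PKP3 they lie in the coding part of exon 13 (chromosome 11, 404534 to 404908, plus strand), and in JUP in the 5' UTR, 8 bases before the start codon in exon 2 (chromosome 17, 39927899 to 39928114).
PKP3 exon 12 to 13: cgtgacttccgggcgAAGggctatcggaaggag
JUP exon 1 to 2: ccccatactcagTAGccacgatggagg

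No member was called between the genotypes. edgeR's quasi-likelihood test with Benjamini-Hochberg adjustment over all 7033 genes and loci tested called 228 (3.24%), and 0 of the 5 members that passed the filter on low counts, which were CDH1, DSP, JUP by its gene ID, PERP and PKP3. Of these, 2 (DSP and PERP) had an unadjusted p under 0.05, against 17.0% of all genes and loci, and DESeq2 and limma-voom also called 0 members. The median log2 fold change of the 5 was 0.48, and that of all genes and loci 0.02. That median is the value of the JUP ID, most of whose reads lie at the KRT17 locus. With the rows under the JUP ID split by locus, 3 of the 5 had an unadjusted edgeR p under 0.05. Over all genes and loci, 1198 of 7034 did in that fit, and again 0 members were called. DSG3, DSC2, DSC3 and PKP1 were read too thinly for the test. In these bulk libraries, fewer cells with a transcript and less of it per cell cannot be told apart.

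**Figure D1:**
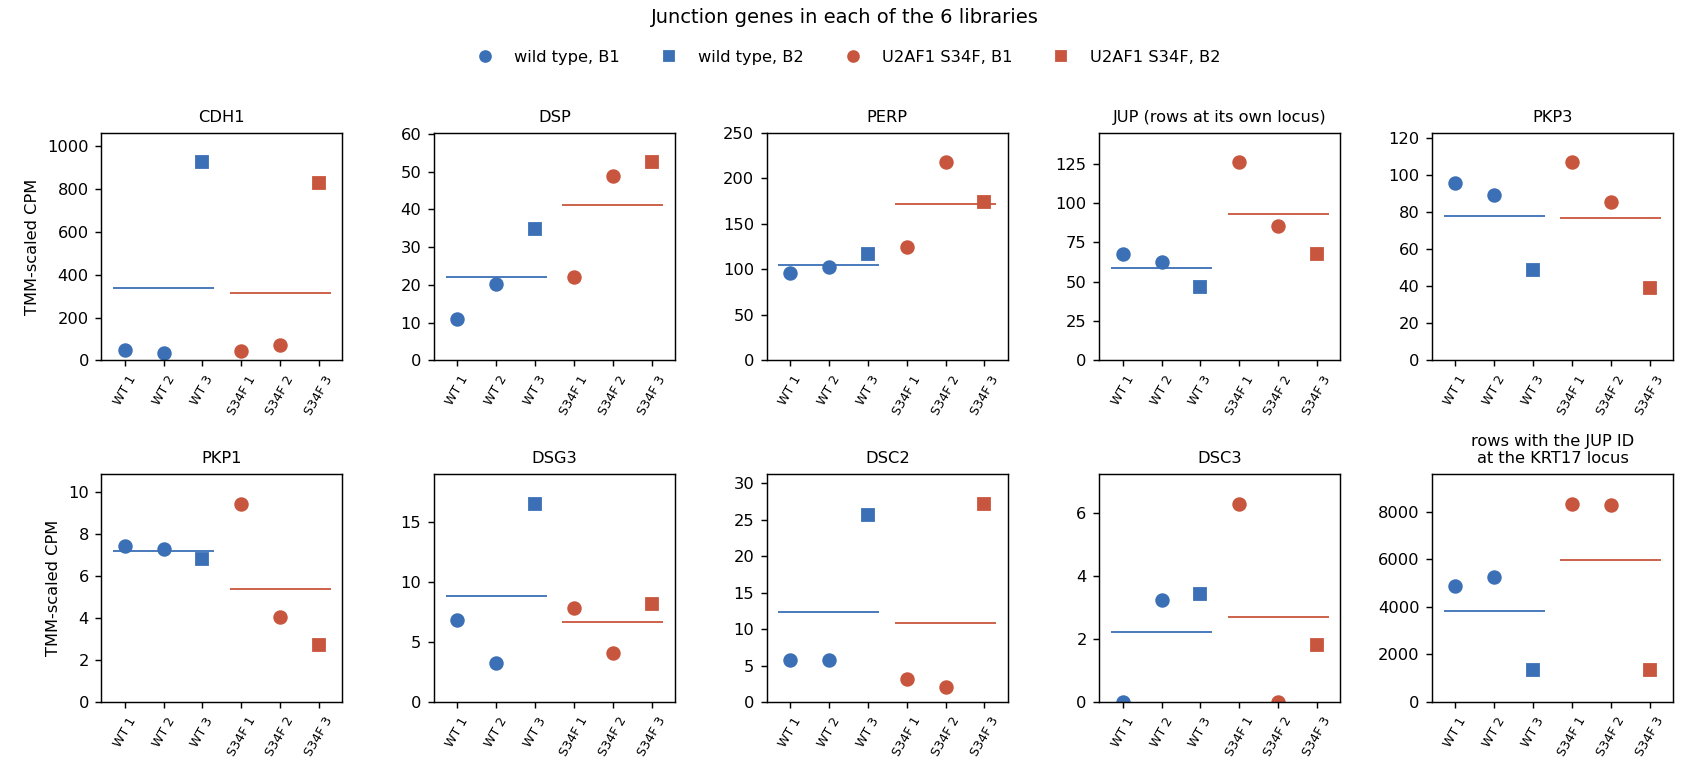
TMM-scaled CPM (y axis, linear, from 0) of each junction gene in the 3 wild-type and 3 S34F libraries (x axis), with rows under the JUP ID split by locus. Points are libraries, circles B1 and squares B2, and lines are group means. The B2 libraries of CDH1 lie at 826 and 925 CPM, above all 4 B1 libraries, while PERP lies at 95.9 to 117 CPM in wild type and 124 to 218 in S34F.

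Desmoplakin (DSP, ENSG00000096696.9, chromosome 6, 7541809 to 7584836) is the linker between the desmosome and keratin filaments. Its reads were 19, 25 and 61 in wild-type replicates 1, 2 and 3 and 14, 24 and 58 in the S34F replicates. After TMM scaling (edgeR's correction for library make-up) these came to 10.8, 20.3 and 34.8 CPM in wild type and 22.0, 48.8 and 52.5 CPM in S34F. In each pair of the same isolate and B mark the S34F library was higher, but the lowest S34F value lay among the wild-type ones. The means were 22.0 ± 12.0 and 41.1 ± 16.6 CPM (SD, n = 3 each), a log2 fold change of 0.94 ± 0.38 (SE; edgeR adjusted p = 0.222, unadjusted 0.0258). Without S34F replicate 1 the test called it (1.12, edgeR adjusted p = 0.0477). In that setting 1600 of 8784 genes and loci had an unadjusted edgeR p under 0.05, against 1197 of 7033 with all libraries.

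PERP (ENSG00000112378.11, chromosome 6, 138411923 to 138428648, minus strand) is a small membrane protein of desmosomes and a target of p53 and p63. It was read 168, 126 and 205 times in wild type and 79, 107 and 192 times in S34F, or at 95.9, 102 and 117 CPM and 124, 218 and 174 CPM. All 3 S34F libraries lay above all 3 wild-type ones, which held for 13.1% of all genes and loci tested in one direction or the other. The means were 105 ± 10.7 and 172 ± 46.7 CPM (SD, n = 3 each), with a log2 fold change of 0.71 ± 0.28 (SE; edgeR adjusted p = 0.214, unadjusted 0.0232). Without S34F replicate 1 this was called as well (0.88, edgeR adjusted p = 0.0485). There, 1600 of 8784 genes and loci had an unadjusted edgeR p under 0.05. All reads of PERP fell on 1 isoform with 3 exons.

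Plakoglobin (JUP), the armadillo-repeat protein shared by desmosomes and adherens junctions, had 118, 77 and 82 wild-type and 80, 42 and 75 S34F reads at its own locus. At 67.4, 62.6 and 46.7 CPM in wild type and 126, 85.5 and 67.9 CPM in S34F, the groups did not overlap, though the highest wild-type and the lowest S34F value nearly met. Among all genes and loci tested, the genotypes did not overlap in 13.1%. With the rows under its ID split by locus, a fit added after the data were seen, the log2 fold change was 0.65 ± 0.28 (SE; edgeR adjusted p = 0.240, unadjusted 0.0326). The rows at the KRT17 locus were at 4885, 5251 and 1340 CPM in wild type and 8321, 8259 and 1332 CPM in S34F. There, both B1 values of S34F exceeded those of wild type and the B2 values were nearly equal (log2 fold change 0.47 ± 0.36, edgeR adjusted p = 0.548). The value by gene ID alone (0.48 ± 0.35, edgeR adjusted p = 0.542) is thus close to that of the KRT17 locus.

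Plakophilins bind desmoplakin to the cadherins. PKP3 (ENSG00000184363.5, chromosome 11, 394146 to 404908) was read 168, 110 and 86 times in wild type and 68, 42 and 43 times in S34F. Its levels of 95.9, 89.4 and 49.0 CPM in wild type and 107, 85.5 and 38.9 CPM in S34F covered the same range. The log2 fold change was -0.07 ± 0.27 (SE; edgeR adjusted p = 0.935), the nearest to 0 of the tested members, and its sign turned in B1 libraries alone (0.04) and without either B2 library (0.03 and 0.06). PKP1 (ENSG00000081277.7, chromosome 1), the plakophilin of the upper layers of stratified epithelia, had 13, 9 and 12 wild-type and 6, 2 and 3 S34F reads, that is 7.42, 7.32 and 6.84 CPM against 9.45, 4.07 and 2.72 CPM. No difference was detectable at this depth.

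E-cadherin (CDH1, ENSG00000039068.14, chromosome 16, 68771129 to 68869451, plus strand), the classical cadherin of epithelia, had 87, 44 and 1623 wild-type and 27, 36 and 913 S34F reads. Its levels were 49.7, 35.8 and 925 CPM in wild type and 42.5, 73.3 and 826 CPM in S34F, so replicate 3 stood far above the others in both genotypes alike. With the B mark in the model, the log2 fold change between genotypes was 0.19 ± 0.33 (SE; edgeR adjusted p = 0.829). The sign turned without the B1/B2 term (-0.09) and without S34F replicate 2 (-0.11).

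The desmosomal cadherin genes DSC3, DSC2 and DSG3 lie in a cluster on chromosome 18, with 23042 bases between the models of DSC3 and DSC2 and 366804 between those of DSC2 and DSG3. Desmocollin 2 (DSC2, ENSG00000134755.10), the desmocollin found in nearly all epithelia, had 10, 7 and 45 wild-type and 2, 1 and 30 S34F reads (5.71, 5.69 and 25.7 CPM; 3.15, 2.04 and 27.2 CPM). Desmoglein 3 (DSG3, ENSG00000134757.4), of basal layers, had 12, 4 and 29 wild-type and 5, 2 and 9 S34F reads (6.85, 3.25 and 16.5 CPM; 7.87, 4.07 and 8.15 CPM). Desmocollin 3 (DSC3, ENSG00000134762.12), also of basal layers, had 0, 4 and 6 wild-type and 4, 0 and 2 S34F reads. For DSC2 and DSG3 the most reads of each genotype were in its B2 library, and the genotypes overlapped in all 3 genes. When the filter was dropped these genes could be fitted, with log2 fold changes of -0.42 for DSC2, -0.57 for DSG3, -0.66 for PKP1 and 0.15 for DSC3 (edgeR adjusted p = 0.857, 0.789, 0.768 and 0.982). The 0 reads of DSC3 in wild-type replicate 1 and S34F replicate 2 allow up to 1.74 and 6.64 CPM (3 reads of the library's total, counting error only).

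**Figure D2:**
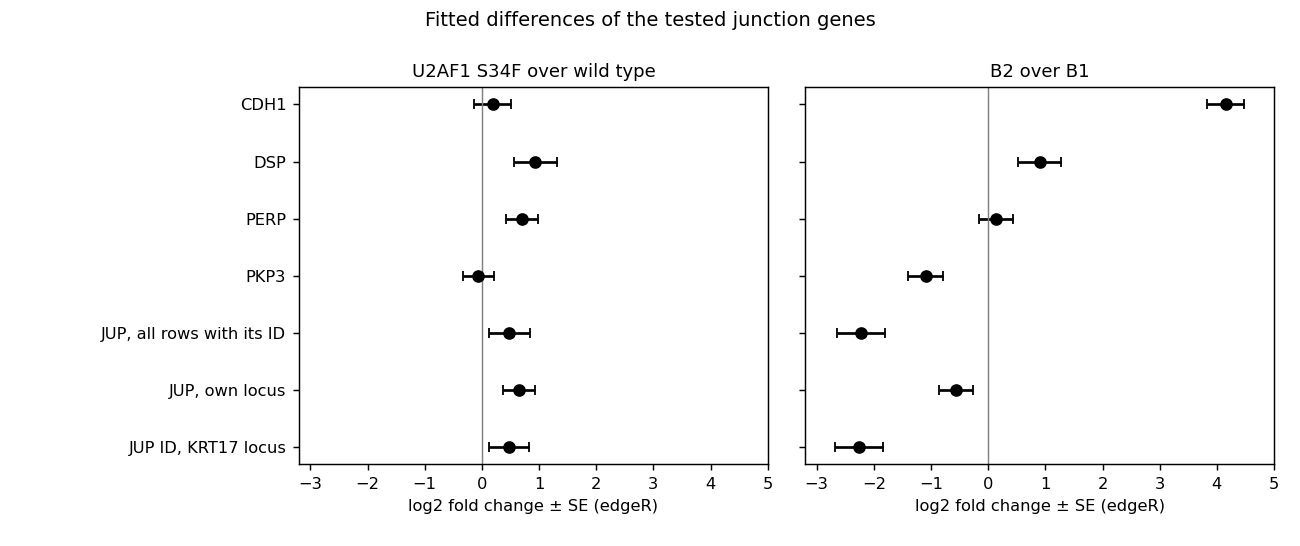
Fitted log2 fold changes (points) with their standard errors (bars) for the members that passed the filter, with rows under the JUP ID combined and split by locus. The left panel shows S34F over wild type, where the values lie between -0.07 and 0.94, and the right panel B2 over B1, where CDH1 is at 4.15 and the JUP ID at -2.22.

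By the size of the fitted log2 fold change, CDH1, PKP3 and the rows under the JUP ID differed more between B2 and B1 than between genotypes, while DSP, PERP and JUP at its own locus did not. This comparison, the B term of the same fit, was added after the data were seen, and both B2 libraries come from isolate 2, so it is not one the labels explain. edgeR called 3 of the 5 tested members, against 26.2% of the 7033 genes and loci (14.4% higher and 11.8% lower in B2). CDH1 was higher in B2 with a log2 fold change of 4.15 ± 0.33 (SE; edgeR adjusted p = 4.92e-07), and 35 of the 7033 genes and loci had a larger one. Within isolate 2, where B2 and B1 can be compared in each genotype, CDH1 was 25.9-fold higher in wild type and 11.3-fold higher in S34F. PKP3 was lower in B2 (-1.10 ± 0.30, edgeR adjusted p = 0.0153), at 0.548 of its B1 level in wild type and 0.455 in S34F. The JUP ID was lower (-2.22 ± 0.42, edgeR adjusted p = 0.00142), but this came from the KRT17 locus (-2.26, adjusted p = 0.00126), while JUP's own rows were not called (-0.56 ± 0.30, edgeR adjusted p = 0.174). DSP (0.90 ± 0.38, edgeR adjusted p = 0.0883) and PERP (0.14 ± 0.29, edgeR adjusted p = 0.759) were not called. DSC2, untested with the filter, was higher in B2 when it was dropped (2.49, edgeR adjusted p = 5.96e-06).

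The CDH1 difference was called under every setting that kept both B marks, with log2 fold changes from 3.91 to 4.44. PKP3 and the JUP ID lost the call without wild-type replicate 3 (edgeR adjusted p = 0.251 and 0.0819) and without S34F replicate 3 (0.302 and 0.130). In those fits B2 rests on 1 library, which is assumed to vary like the others. PKP3 also lost it at equal depth with all libraries kept (-0.82, edgeR adjusted p = 0.101). The share of reads on long models and on loci without a gene ID, given above, moved with the B mark, and their part in these differences was not tested. The summed level of the fibroblast or mesenchymal markers was 621 to 1343 CPM in B1 and 1515 and 2040 CPM in B2, and its part was not tested either. Of these markers FN1 was called (1.34, edgeR adjusted p = 0.0137). The basal markers summed to 7500 to 18870 CPM in B1 and 4985 and 8844 CPM in B2. There ITGA6 was higher (1.84, edgeR adjusted p = 0.000646) and KRT14 (-1.38) and KRT17 (-1.61) were lower, all called. KRT17 here means its own gene ID, and the reads at its locus under the JUP ID enter neither its value nor the sum. Of 13 squamous or suprabasal markers 2 were read, KRT10 and, with a few reads, SPRR1B. KRT10, a keratin of suprabasal cells, was at 64.5 to 116 CPM in B1 and 19.0 and 21.7 CPM in B2 (-2.14, edgeR adjusted p = 0.000356). The part of the basal and suprabasal markers was not tested. No member was called for a different genotype effect in B1 and B2 (an interaction term added after the data were seen, edgeR adjusted p = 1.00 for each of the 5, with unadjusted p from 0.475 to 0.774).

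The read models show which parts of these transcripts were seen. Of 2730 CDH1 reads, 2700 fell on a form of 6 exons and 3065 bases that begins inside exon 11 of the gene (68853251 to 68869451), and 30 on the full form of 16 exons (ENST00000261769). In the B2 libraries the short form took 1609 of 1623 and 911 of 913 reads, and in the B1 libraries 82 of 87, 41 of 44, 25 of 27 and 32 of 36. The 2 forms also end at different places, and the choice between these ends was not called (log odds change 0.45 ± 0.58, edgeR adjusted p = 0.973). DSG3 had 1 form, of 5 exons and 1957 bases, where GENCODE v29 lists 16 exons. DSC2 had a form of 16 exons with 3, 4 and 37 wild-type and 0, 0 and 29 S34F reads and a 5' fragment of 5 exons with 7, 3 and 8 and 2, 1 and 1 reads. All but 7 of the 73 reads of the long DSC2 form were therefore in the B2 libraries. The 24-exon form of DSP ended 61 bases into a last exon of 4076 bases in GENCODE v29. None of these starts and ends can be told apart from incomplete cDNA with these files.

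Desmocollins are made in an a form and a shorter b form, which differ by 1 exon that ends the reading frame early. Plakophilin 1 is also made in 2 forms, but its exon of 63 bases lengthens the coding part, from 2178 to 2241 bases. The deposited models held the a form of DSC2 and DSC3 and the shorter form of PKP1, and none held the exon that sets the other form apart. These exons are shown from GENCODE v29 because they are what a read of the other form would carry. The first 21 bases are the same in both desmocollins.
DSC2 exon 16 of ENST00000251081: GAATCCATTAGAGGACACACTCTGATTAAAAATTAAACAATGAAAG
DSC3 exon 16 of ENST00000434452: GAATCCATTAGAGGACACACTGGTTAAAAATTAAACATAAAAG
PKP1 exon 7 of ENST00000263946: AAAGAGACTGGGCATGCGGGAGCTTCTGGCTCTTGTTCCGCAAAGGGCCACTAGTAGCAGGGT
With 73 reads on the long DSC2 form, 7 on that of DSC3 and 45 on PKP1, forms of low share could have been missed.

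At the level of isoforms, 56 of the 106 rows under member IDs were tested, 14 at the members' own loci and 42 at the KRT17 locus. edgeR called 0 of them, against 595 of 13961 isoforms (4.26%), with 6 at an unadjusted p under 0.05 (1 at an own locus and 5 at the KRT17 locus, against 17.0% of all isoforms). DESeq2 also called 0, while limma-voom called 1, the JUP form described next. The test of isoform usage, whether forms of a gene change relative to each other, covered DSP, JUP by ID and PKP3 and called 0, against 14 of 2276 genes (0.615%). That is the Simes test, and the F test called 0 members as well, against 28 of 2276 (1.23%). At an unadjusted p under 0.05 both had 0 members. By its ID, JUP entered with 47 forms from both loci, so forms of JUP were compared with forms of KRT17. With the ID split by locus, the edgeR F test called neither JUP's 5 own-locus forms nor the 42 KRT17-locus forms (adjusted p = 0.962 and 0.989). Without S34F replicate 1 the F test called the JUP ID (edgeR adjusted p = 0.000841), against 18 of 2978 genes (0.604%), and the Simes test did not (adjusted p = 0.963). That call pools 52 forms under the ID, and the split by locus was not run in that setting.

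**Figure D3:**
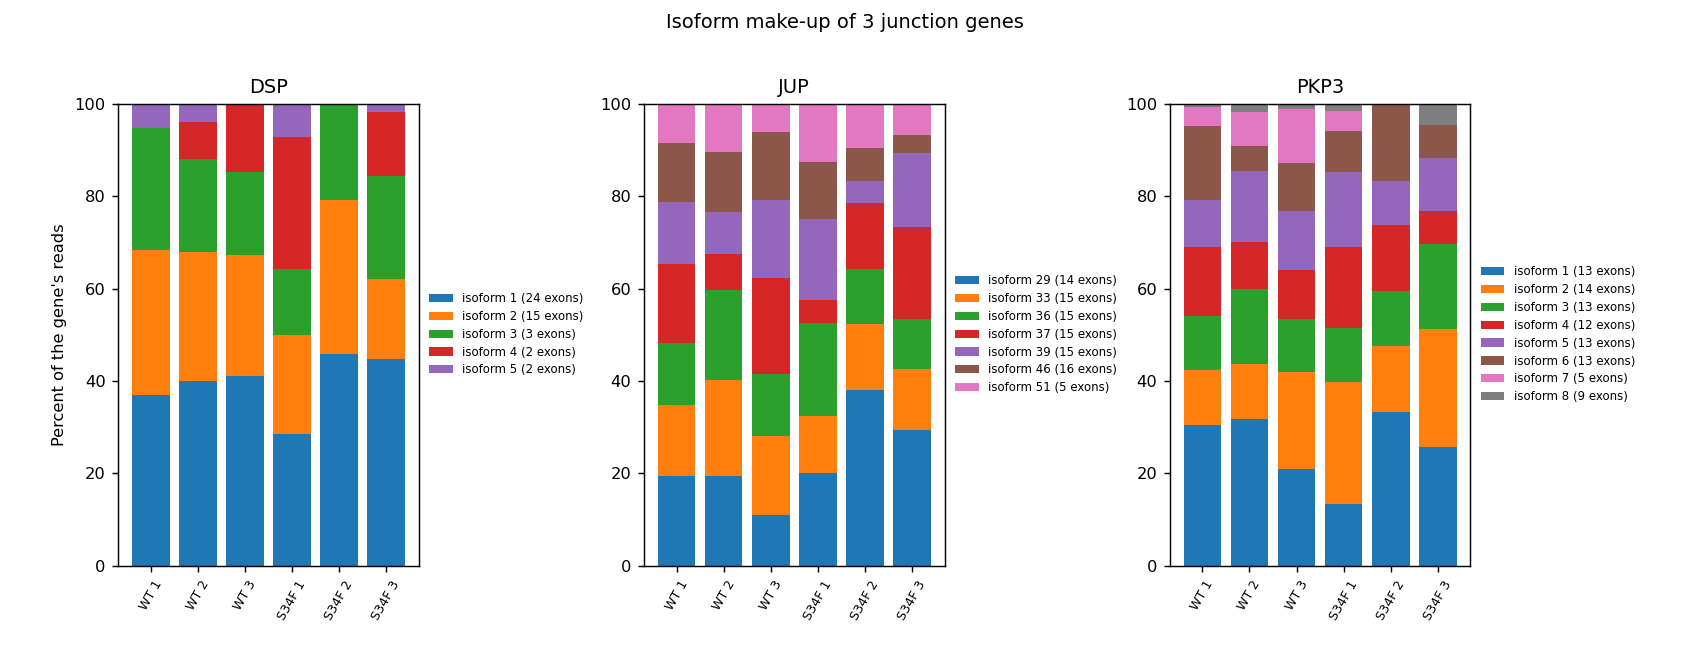
Share of each isoform (stacked bars, percent of the gene's reads, y axis from 0) in every library (x axis) for DSP, JUP at its own locus and PKP3. The JUP form with 14 exons (isoform 29) takes 19.5%, 19.5% and 11% of reads in wild type and 20%, 38.1% and 29.3% in S34F.

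JUP's 7 own-locus forms, a model of only 5 exons (isoform 51) among them, differ in several places. These are their first exons, a 5' exon, the acceptor of exon 2, an exon of 40 bases and the 3' UTR. The most read of the 7 forms, with 14 exons (ENST00000393931), keeps an intron of 297 bases in the 3' UTR (39911685 to 39911981) that starts 14 bases after the stop codon. It had 23, 15 and 9 reads of 118, 77 and 82 in wild type and 16, 16 and 22 of 80, 42 and 75 in S34F. The 95% exact binomial intervals run from 12.8% to 27.8%, 11.3% to 30.1% and 5.14% to 19.8% in wild type and from 11.9% to 30.4%, 23.6% to 54.4% and 19.4% to 41.0% in S34F, counting error only. So S34F replicates 2 and 3 kept the intron in more of their reads than any wild-type library, and S34F replicate 1 was level with wild-type replicates 1 and 2. The mean share was 16.6 ± 4.91% and 29.1 ± 9.05% (SD, n = 3 each), a log odds change of 0.94 ± 0.39 on the log2 scale (SE; edgeR adjusted p = 0.364, unadjusted 0.0175). As an isoform, it had a log2 fold change of 1.35 ± 0.39 (SE; edgeR adjusted p = 0.0505). It was called with RLE scaling (adjusted p = 0.0451), by limma-voom (0.0438) and without S34F replicate 1 or 2 (0.0332 and 0.0482), and not in the other 10 alternatives that tested it.

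The 109-base exon between exons 1 and 2 of JUP (39929070 to 39929178), in the 5' UTR, was read in 15 of 54, 10 of 40 and 12 of 32 informative reads in wild type and in 10 of 42, 3 of 24 and 3 of 33 in S34F. Every S34F library was lower than every wild-type one (30.1 ± 6.56% and 15.1 ± 7.70%, SD, n = 3 each). How many of all splice choices part the genotypes in this way was not counted. The change was not called (log2 odds -1.11 ± 0.53, edgeR adjusted p = 0.490, unadjusted 0.0386), and 9.4% of all choices tested had an unadjusted p under 0.05. The upstream one of the tandem acceptors of exon 2 was used in 70.3 ± 11.1% of wild-type and 77.4 ± 12.1% of S34F reads (SD, n = 3 each; log2 odds 0.39 ± 0.49, edgeR adjusted p = 0.895), with ranges that overlap. Neither the longer form of exon 1, 111 against 93 bases (67.8 ± 14.7% and 77.8 ± 11.1%, edgeR adjusted p = 0.618), nor the 40-base exon (91.7 ± 2.15% and 90.4 ± 2.92%, edgeR adjusted p = 0.942) was called.

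In PKP3 the upstream acceptor of exon 13 was used in 140 of 167, 102 of 108 and 76 of 85 reads in wild type and in 61 of 67, 35 of 42 and 38 of 41 in S34F. The shares were 89.2 ± 5.31% and 89.0 ± 4.99% (SD, n = 3 each), with a log2 odds change of 0.09 ± 0.43 (SE; edgeR adjusted p = 0.979), so the spread between libraries was far larger than the difference. Exon 2 (80 bases, a length that shifts the frame; 396608 to 396687) was included in 82.0 ± 2.04% and 81.5 ± 7.98% of reads (edgeR adjusted p = 0.974). A 145-base stretch of exon 1 (394184 to 394328) was kept in 80.7 ± 7.72% and 73.2 ± 9.66% (log2 odds -0.77 ± 0.44, edgeR adjusted p = 0.608). The start codon lies 232 bases before the end of that exon and the spliced form keeps 196 bases, so reads without the stretch lack the annotated start, shown here with the ATG in capitals.
PKP3 start codon: ggacctgccgccATGcaggacggtaac
The 171-base intron at 403772 to 403942 was retained in 7 of 167, 8 of 108 and 10 of 85 reads in wild type and in 3 of 67, 0 of 42 and 0 of 41 in S34F. The counts of 0 allow up to 7.14% and 7.32% (3 reads of the informative ones). The share in S34F replicate 1 lay just above the lowest wild-type one, and the change was not called (log2 odds -1.77 ± 0.79, edgeR adjusted p = 0.417, unadjusted 0.0253).

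**Figure D4:**
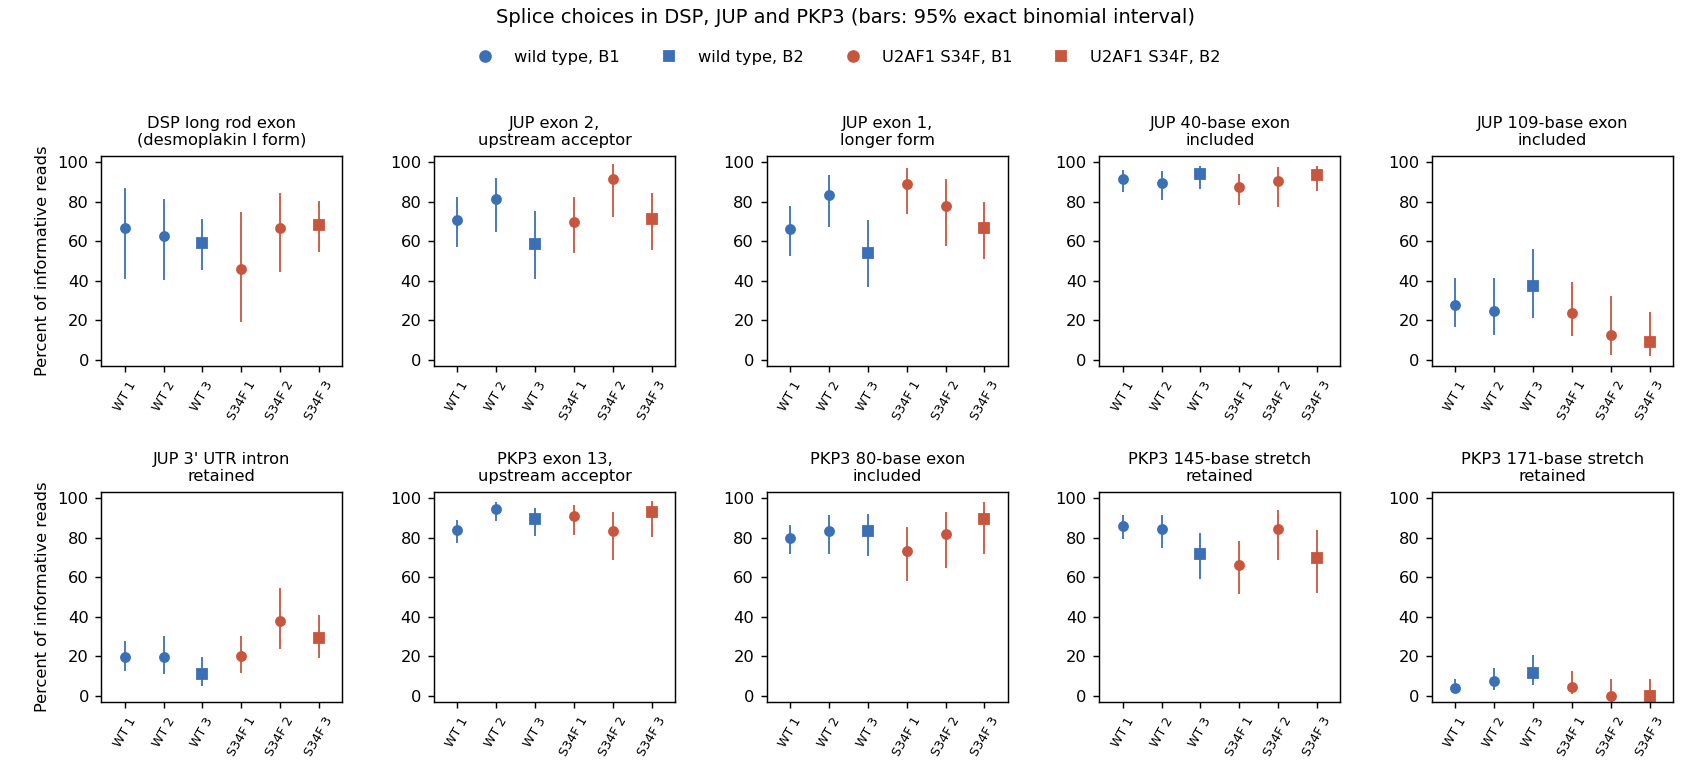
Share of informative reads with 1 form of each of the 10 tested splice choices at the members' own loci (y axis, percent) in every library (x axis). Points are libraries, with 95% exact binomial intervals. The JUP intron lies at 11% to 19.5% in wild type and 20% to 38.1% in S34F, and the acceptor pair of PKP3 at 83.8% to 94.4% and 83.3% to 92.7%.

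Desmoplakin I was the more read form of DSP in 5 of 6 libraries. Its junction, printed above, was in 12 of 18, 15 of 24 and 36 of 61 informative reads in wild type and in 6 of 13, 16 of 24 and 39 of 57 in S34F. The mean share was 62.7 ± 3.83% and 60.4 ± 12.4% (SD, n = 3 each; log2 odds 0.20 ± 0.49, edgeR adjusted p = 0.957). In S34F replicate 1, the library with the fewest such reads, the 95% exact binomial interval runs from 19.2% to 74.9%, so only large shifts were detectable.

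Among all splice choices under member IDs, 54 were tested, 10 at own loci and 44 at the KRT17 locus. edgeR called 0, against 202 of 17074 (1.18%), with 3 own-locus and 4 KRT17-locus choices at an unadjusted p under 0.05 (9.4% of all), and limma on log odds called 0. The closest to the threshold was a retained intron of KRT17 (39778004 to 39778606; log2 odds -0.84 ± 0.26, edgeR adjusted p = 0.0795), which was called without S34F replicate 1 (-1.17, adjusted p = 0.00229). Its retaining reads were set only against reads spliced at the acceptor 39778003, the less used one there. A change in retention therefore cannot be told apart from a change in the use of that acceptor. At the same intron, acceptors 3 bases apart (39778003 and 39778006) had the most reads of the less used form: the more used one took 82.7 ± 4.50% and 79.8 ± 4.40% of reads (SD, n = 3 each; edgeR adjusted p = 0.753). For 3' ends, CDH1 and the JUP ID could be tested and 0 were called, against 19 of 2329 genes (0.816%), with 0 at an unadjusted p under 0.05 (7.73% of all). The ends tested under the JUP ID lie at the KRT17 locus. All JUP models at its own locus end at 39910857, so JUP itself offered no choice to test.

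The other genes of the desmosome gave no call between genotypes either. Of 11 further desmosome genes, 5 had reads (DSG2, PKP2, PKP4, PLEC and DST), 3 were tested and 0 called. DSG2, the desmoglein found in all epithelia, was at 11.7 ± 9.14 and 17.8 ± 4.99 CPM (SD, n = 3 each; log2 fold change 0.67 ± 0.41, edgeR adjusted p = 0.445). PKP2 (-0.40, adjusted p = 0.768) and PKP4 (-0.07, 0.966) were lower, not past the threshold, and PLEC and DST were read 37 and 19 times in all.

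Of 27 listed catenins, cadherins and their partners, 15 had reads, 11 were tested and edgeR called 0 between genotypes (median log2 fold change -0.01). Beta-catenin (CTNNB1), which binds E-cadherin and also carries Wnt signals, was at 587 ± 303 and 483 ± 199 CPM (SD, n = 3 each; -0.20 ± 0.29, edgeR adjusted p = 0.793). Alpha-catenin (CTNNA1), the link to actin, was at 161 ± 98.3 and 155 ± 60.9 CPM (0.03 ± 0.27, edgeR adjusted p = 0.978). P-cadherin (CDH3), the basal-cell cadherin, was at 133 ± 50.7 and 121 ± 39.5 CPM (-0.11 ± 0.27, edgeR adjusted p = 0.883). The smallest p-values belonged to CDH13, a cadherin held in the membrane by a lipid anchor (-0.90 ± 0.35, edgeR adjusted p = 0.203), and CTNNBL1, a spliceosome-associated protein named after catenins (0.60 ± 0.27, edgeR adjusted p = 0.266). The third was CTNNBIP1, an inhibitor of beta-catenin (0.71, edgeR adjusted p = 0.487). CTNND1, VCL, NECTIN2, AJUBA and LIMA1 had log2 fold changes from -0.32 to 0.59, and AFDN, NECTIN1, ARVCF and VEZT were read 31, 28, 8 and 68 times in all and were not tested.

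Between B2 and B1, 8 of these 11 genes were called by edgeR, against 26.2% of all 7033 genes and loci. CTNNA1 (1.16, edgeR adjusted p = 0.00727), CTNND1, the p120 catenin that holds E-cadherin at the surface (1.46, adjusted p = 0.0214), CDH3 (0.79, 0.0429), CDH13 (1.42, 0.00603) and VCL, the actin linker vinculin (1.37, 0.0345), were higher in B2. CTNNB1 (-1.42, 0.00603), CTNNBIP1 (-2.32, 0.00739) and NECTIN2 (-1.99, 0.00230) were lower. DSG2 was higher in B2 as well (1.26, edgeR adjusted p = 0.0318). Genes of the adherens junction thus differed with the B mark in both directions, and CDH1 by more than any of these. Of these 8 genes and DSG2, 5 were called in isolate 2 libraries alone, 5 without wild-type replicate 1 and 5 without wild-type replicate 2. Only 2 were called without S34F replicate 3 (CTNNBIP1 and NECTIN2), and 0 of the 8 that could be tested without wild-type replicate 3. The shares of all genes and loci called in these settings are not given here.

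Outside the junctions themselves, 1 gene of the lists was called between genotypes. KRT6B, a keratin of activated epithelial cells with close paralogues, fell from 36.2 ± 10.2 to 10.4 ± 0.561 CPM (SD, n = 3 each; log2 fold change -1.81 ± 0.39, edgeR adjusted p = 0.0191). The call was lost without wild-type replicate 2, wild-type replicate 3 or S34F replicate 3 (-1.65, -1.62 and -1.59, edgeR adjusted p = 0.147, 0.258 and 0.224). It was also lost without the B1/B2 term (edgeR adjusted p = 0.210), in B1 libraries alone (0.239) and with the isolate 2 libraries summed (1.00). It was 1 of 11 tested genes of cytoplasmic keratins and linkers, the filaments that desmoplakin binds. KRT5 (1.34, edgeR adjusted p = 0.0513) and KRT19 (1.31, 0.0668) came next in that list. Among 8 tested tight and gap junction genes 0 were called, and CRB3 (-0.66, edgeR adjusted p = 0.325) and CLDN7 (-0.50, edgeR adjusted p = 0.692) were among those with the smallest p-values.

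Of the 5 tested epithelial transcription and splicing factors 0 were called, with KLF5 (-0.99, edgeR adjusted p = 0.157) and ESRP1 (-0.73, edgeR adjusted p = 0.339) among those with the smallest p-values. Of the genes of proteins that repress cadherin genes, SNAI2 (0.28, edgeR adjusted p = 0.800) and TCF3 (0.12, 0.903) were tested, and 6 of the 9 listed had no row. Of 9 tested genes of proteins that cut, phosphorylate or turn over junction proteins 0 were called, with ADAM17 (-0.86, edgeR adjusted p = 0.172), ADAM15 (0.56, 0.526) and PTPN1 (-0.31, 0.632) first by p. Among markers, 0 of 9 tested basal and 0 of 4 tested mesenchymal genes were called. By p, KRT5, KRT17 (0.72, edgeR adjusted p = 0.241) and S100A2 (0.84, 0.264) led the basal ones. SPARC (1.10, edgeR adjusted p = 0.109), FN1 (0.55, 0.471) and VIM (0.39, 0.563) led the mesenchymal ones. KRT17 is again taken by its own gene ID, without the rows under the JUP ID.

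The genes whose profile over the 6 libraries was most like the mean of the 5 tested members (log2 CPM, each centred on its own mean, all rows under the JUP ID combined) were NUP160, GATC, CLNS1A, NRDC and C14orf119. Their Pearson r ran from 0.978 to 0.987. This is a description over 6 libraries that share the same depths and B marks, chosen as the highest of 7033 values. That mean was lowest in wild-type replicate 1 (-0.46) and highest in S34F replicate 2 (0.40).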

How the data were processed

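Raw read counts per isoform, as deposited by the authors in 1 table with a matching file of isoform models, were used as the starting point. The file's name points to FLAIR, and genome build hg19 is named in the submitters' processing notes; neither names a filter or a version. The authors' counts were summed per Ensembl gene ID (14222 isoforms without one were kept as loci). Symbols came from the supplied gene table (10832 of 11034 IDs matched). Total reads per library were 451540 to 1720292.

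Genotypes were compared with edgeR 4.0.16 (R 4.3.3): TMM scaling, a filter of 10 reads (15 in all), terms for genotype and B1/B2, the quasi-likelihood test, Benjamini-Hochberg adjustment and a threshold of 0.05. Isoform usage was tested with diffSpliceDGE. Splice choices and 3' ends (merged within 100 bases) were tested on the reads of each form, where every library had 10 or more such reads. Alternatives used DESeq2 1.42.0, limma 3.58.1, RLE scaling, other filters, thinned counts and left-out libraries. Of the fits, the gene-level one between genotypes and that of splice choices were tested on simulated data. Sequences were read from GENCODE v29 transcripts by transcript and exon number, after exon lengths were compared with the models; no coordinates were converted.

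Same-numbered libraries shared their isolate and B mark, and their deviations from the genotype means correlated (r = 0.488, 0.161 and 0.848). Within B1, differently numbered libraries correlated too. Here r was 0.544 for wild-type replicate 2 with S34F replicate 1, and 0.326 for wild-type replicate 1 with S34F replicate 2. The correlations thus followed the B mark and did not single out pairs within B1. The replicate block pairs libraries by number because of their shared isolate and B mark.

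The members and gene lists were chosen with earlier results of these data known. Named were all members, each list's called genes and the 3 with the smallest p, all measured genes of the first 2 further lists (other desmosome genes; catenins, cadherins and partners), the 2 most read isoforms of a member, its called splice choices or else the 2 with most reads of the less used form, and the 5 genes most like the members. Some genes that this rule names are not reported here. Beyond this rule, all own-locus choices of JUP and PKP3, JUP isoform 29 and the KRT17-locus intron were named after their values were seen, because most rows under the JUP ID lie elsewhere.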

Additional observations from a re-analysis of the deposited data

Results flagged for a closer look

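Reads without a gene ID were found inside JUP. A model of 2 exons at the 3' end of the gene (chromosome 17, 39910857 to 39913727, same strand) carries no gene ID and held 40 reads: 10, 3 and 4 in wild-type replicates 1, 2 and 3 and 7, 8 and 8 in the S34F replicates. This was 5.81, 2.33 and 2.52 CPM of the library total in wild type and 8.63, 17.7 and 7.88 in S34F. Every S34F library was thus above every wild-type one, and the genotypes did not overlap in 13.1% of all genes and loci tested. That share was taken on TMM-scaled CPM after the filter, while the values here are unscaled. On the same strand, another such model (39926160 to 39926957) had 2, 4 and 1 wild-type and 0, 0 and 2 S34F reads. The 40 reads of the first model enter no value of JUP above, and their difference was not tested.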

How the results depend on the processing

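The 228 called genes and loci became 2 without the B1/B2 term, 79 in B1 libraries alone, 491 without a filter, 84 with 10 reads in every library, 125 at equal depth and 0 with the isolate 2 libraries summed (edgeR; 287 at an unadjusted p under 0.05). Leaving out 1 library gave 67 to 655, and with a replicate block, that is with the libraries paired by number, 187. The block left the members' counts at 0. The count of members called between genotypes was 0 under every other setting and tool, and 0 to 2 with 1 library left out (DSP and PERP, without S34F replicate 1). The count of member isoforms was 1 with RLE scaling, 1 with limma-voom and 0 to 1 with 1 library left out, JUP isoform 29 each time. That of member splice choices was 0 to 1 (the KRT17-locus intron, without S34F replicate 1). Counts of members called for usage (Simes, or F with all libraries) and for 3' ends were 0 under all 12 alternatives each; the F test of usage called the JUP ID without S34F replicate 1. The PKP3 log2 fold change turned to 0.0447 in B1 alone and ran from -0.221 to 0.0597 with 1 library left out. That of CDH1 turned to -0.0938 without the B1/B2 term and ran from -0.11 to 0.42. DSP, PERP and the JUP ID kept their sign under all alternatives that tested them. Between B2 and B1, 1 to 5 members were called with 1 library left out, and 2 to 4 under the other alternatives. The members that could be tested changed with the setting. The share of all genes and loci called was 26.2% in the main fit and is not given for the alternatives. PERP turned to -0.15 in isolate 2 alone and ran from -0.0817 to 0.237. Without the filter the median log2 fold change of all genes and loci moved to -0.22. The small S34F libraries, where 1 read is worth 0.985 to 2.21 CPM, limit DSG3, DSC2, DSC3 and PKP1 most.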
